A study of Mus musculus with 4 samples.

Results

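The replication-dependent histone genes, which encode the core and linker histones made in S phase, were taken as the rows of the deposited gene table whose symbol begins with Hist1, Hist2, Hist3 or Hist4 followed by a histone class. The pattern matched 71 of 34745 rows under 70 symbols, because Hist2h2bb stands in the table under 2 identifiers. By class there were 6 H1, 20 H2A, 20 H2B, 12 H3 and 13 H4 rows. By gene cluster, 56 rows lay in Hist1 on chromosome 13, 11 in Hist2 on chromosome 3, 3 in Hist3 on chromosome 11 and 1 in Hist4 on chromosome 6. A GENCODE annotation of the same genome build held 69 of the identifiers, 65 as protein-coding genes, 3 as pseudogenes and 1 as a long intergenic RNA named Gm42743, which is one of the rows called Hist2h2bb.

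The RNA came from naive CD4+ T cells of C57BL/6 mouse spleens that had been cultured for 3 days in conditions that drive regulatory T (Treg) cell differentiation. The knockout-labelled libraries, numbered 22 and 24, have the genotype Setd2-CD4 cre, in which Cre recombinase under CD4 control acts on Setd2, the methyltransferase gene for lysine 36 of histone H3. The wild-type libraries are numbered 13 and 15. The Cd4 promoter is already active in developing thymocytes. The sources used here give neither the age of the mice nor the number of mice behind each library, so the spread behind each p-value is that of the libraries as sequenced and could be technical alone.

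Most messenger RNAs end in a poly(A) tail, but those of replication-dependent histones end just after a short stem-loop, which is bound by the stem-loop binding protein Slbp and cut by a complex that holds the U7 small nuclear ribonucleoprotein. Their transcription in S phase depends on Npat, which acts at histone gene clusters, and their RNAs are destroyed when DNA synthesis stops. Some genes of the family also give longer, polyadenylated transcripts, which are known from cells that have stopped dividing.

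The stem-loop was looked for in the annotated transcripts because it stands at the 3′ end of these RNAs in place of a tail. A pattern of 16 bases was used, with 6 bases that begin GG and end in T, a loop of 4 bases in which the third base is T, and 6 bases complementary to the first. It was found in 44 of 69 rows that have a transcript in GENCODE M21, beginning 22 to 59 bases past the stop codon with a median of 32.5. Some rows without it have short annotated transcripts, such as Hist1h4k with 312 bases and Hist1h2bl with 381. These may end before the place of the stem-loop, so a row without the pattern is not shown to lack it. The sequences below are shown as DNA, 5′ to 3′, with the paired stem in capitals and the loop in lower case.
Form of 24 H1, H2A, H2B and H3 rows, here Hist1h1c (chr13:23739512-23739527, plus strand, GRCm38): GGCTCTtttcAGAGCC
Form of 6 H1, H2B and H3 rows, here Hist1h3c (chr13:23745047-23745062, minus strand): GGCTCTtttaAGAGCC
Form of 7 H4 rows, here Hist1h4d (chr13:23581950-23581965, plus strand): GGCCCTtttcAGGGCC
Form of Hist1h4i and Hist2h4, here Hist1h4i (chr13:22040966-22040981, minus strand): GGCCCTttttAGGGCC
Form of Hist1h4b and Hist1h4j, here Hist1h4b (chr13:23757366-23757381, plus strand): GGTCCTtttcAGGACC
The 12 H4 rows with a stem-loop all had a stem other than the one shared by the 32 rows of the other classes. Of the 2 genes on which the results below mainly turn, neither had the pattern in its annotated transcript. The single transcript of Hist2h2be is 2620 bases long and has a poly(A) signal near its end. The transcript of Hist1h2bc has 2 exons, and its first exon ends 9 bases past the stop codon, short of the place where the stem-loop stands in the other rows. A poly(A) signal, AATAAA or ATTAAA in the last 40 bases, was found in 17 rows, 14 of which also had a stem-loop.

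As a check of the labels, Setd2 measured 137 and 113 CPM in the knockout-labelled libraries, against 137 and 146 CPM in wild type. CPM is a count scaled to a common library size, after correction of the library sizes by trimmed means. The log2 fold change of Setd2 was -0.17 with SE 0.14 (edgeR quasi-likelihood test, Benjamini-Hochberg adjusted p = 0.436), so a count over the whole gene did not separate the groups, and the labels do not name the deleted exons. Library totals ran from 14599957 to 16030869 counts. The summed level of 3 B cell markers (Ms4a1, Cd79a and Igkc) was 20.3 and 14.4 CPM in the knockout-labelled libraries, against 7.84 and 6.37 CPM in wild type. All 3 of these markers had higher values in both knockout-labelled libraries than in either wild-type library, where this held for 31.1% of all tested genes. Of the 3, 1, Igkc, passed the threshold, where 5.53% of all tested genes were higher. The call of Igkc was lost without wild type 13 or 15. Tcrg-C1, a constant segment of the gamma-delta T cell receptor, measured 10.4 and 21.6 CPM in the knockout-labelled libraries, against 5.02 and 3.02 CPM in wild type. It passed the threshold, and its call was lost with wild type 15 left out. The other gamma-delta marker, Trdc, overlapped between the groups, with 10.1 and 5.80 CPM in the knockout-labelled libraries and 5.08 and 6.57 CPM in wild type. Of the tested markers of CD8 T, myeloid, NK and red cells, 0 passed with edgeR or DESeq2, and 0 had an unadjusted p below 0.05. The CD8 markers Cd8a and Cd8b1 were well above the B cell markers in level. They summed to 182 and 78.4 CPM in the knockout-labelled libraries and 125 and 183 CPM in wild type, and the groups overlapped. The defining T cell genes Cd3e and Cd4 stood above 250 CPM in each library. The Treg factor Foxp3 measured 31.9 and 75.7 CPM in the knockout-labelled libraries, against 241 and 247 CPM in wild type (adjusted p = 0.0233). Il2ra, also listed as a Treg marker, measured 828 and 856 CPM in the knockout-labelled libraries, against 1193 and 1230 CPM in wild type (adjusted p = 0.0304). The other 5 listed CD4 T and Treg genes did not pass. Foxp3 and Il2ra did not both pass with wild type 13 or with wild type 15 left out.

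Histone RNAs were scarce in all 4 libraries. The 71 rows together held 781 counts in knockout-labelled 22 and 886 in knockout-labelled 24, against 618 in wild type 13 and 604 in wild type 15. These are 0.00501% and 0.00566% of all counts in the knockout-labelled libraries, and 0.00386% and 0.00414% in wild type. The median row had 2 and 4 counts in the knockout-labelled libraries and 2 counts in each wild-type library. No count was listed for 18 and 9 rows in the knockout-labelled libraries and for 22 rows in each wild-type library, where a count of 0 allows a level of up to 3 counts, or 0.184 to 0.201 CPM. In H1, H2B and H4, most of the counts came from a single row, as the heat map of counts shows.

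**Figure D1:**
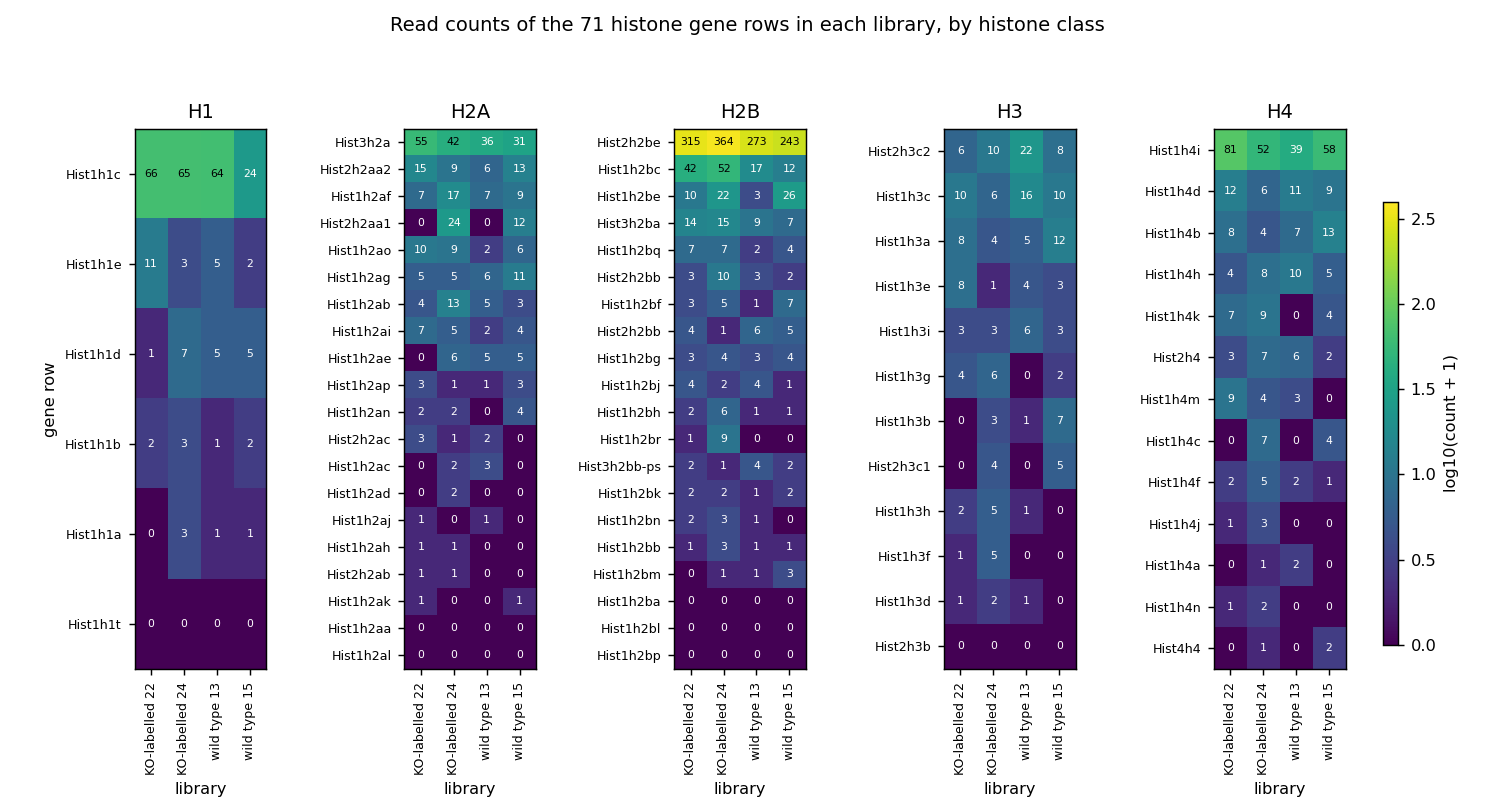
Read counts of the 71 histone gene rows (vertical axes, sorted by their sum within each class) in the 4 libraries (horizontal axes), with the count printed in each cell and its log10(count + 1) as colour. Hist2h2be stands out with 243 to 364 counts, and 7 rows are at 0 in all 4 libraries.

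Over all 4 libraries, 7 rows had no count, 24 had 1 to 9 counts, 29 had 10 to 39 and 11 had 40 or more. The 7 rows without a count included Hist1h1t, Hist1h2aa and Hist1h2ba, which encode the testis variants of H1, H2A and H2B, and Hist1h2al, an annotated pseudogene. The others were Hist1h2bl, Hist1h2bp and Hist2h3b. Many genes of the family are near copies of each other. In 34 rows more than 50% of the 50-base stretches of the annotated transcripts also stood in another row's transcript. Estimated counts of such rows can move between copies, so sums by class are given beside the single rows.

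The summed level of all 71 rows was 54.4 ± 3.02 CPM in the knockout-labelled libraries and 39.2 ± 1.87 CPM in wild type (SD, n = 2 each), a ratio of 1.39. Both knockout-labelled libraries, at 52.2 and 56.5 CPM, were above both wild-type libraries, at 37.8 and 40.5 CPM. Summed H2B was 30.04 ± 3.24 CPM in the knockout-labelled libraries and 20.8 ± 0.877 CPM in wild type. Summed H2A was 8.31 ± 0.875 CPM in the knockout-labelled libraries and 5.75 ± 1.54 CPM in wild type. Summed H4 was 7.75 ± 1.14 CPM in the knockout-labelled libraries and 5.73 ± 1.18 CPM in wild type, and summed H1 was 5.26 ± 0.130 CPM in the knockout-labelled libraries and 3.47 ± 1.68 CPM in wild type. The H3 mean ran the other way, with 3.00 ± 0.176 CPM in the knockout-labelled libraries and 3.39 ± 0.0551 CPM in wild type. These H3 sums rest on 43 and 49 counts in the knockout-labelled libraries and 56 and 50 in wild type. When the counts of each class were summed into 1 row and tested in the same fit in place of the single rows, 0 of 5 classes passed the threshold, and 1, H2B, had an unadjusted p below 0.05. Without Hist2h2be, the most abundant row, the remaining 70 rows summed to 31.2 and 33.3 CPM in the knockout-labelled libraries and 21.1 and 24.2 CPM in wild type. The 60 rows that did not pass the filter on low counts, described below, summed to 161 and 229 counts in the knockout-labelled libraries and 144 and 159 counts in wild type. In bulk RNA, fewer cells that hold an RNA and less of it in each cell cannot be told apart.

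**Figure D2:**
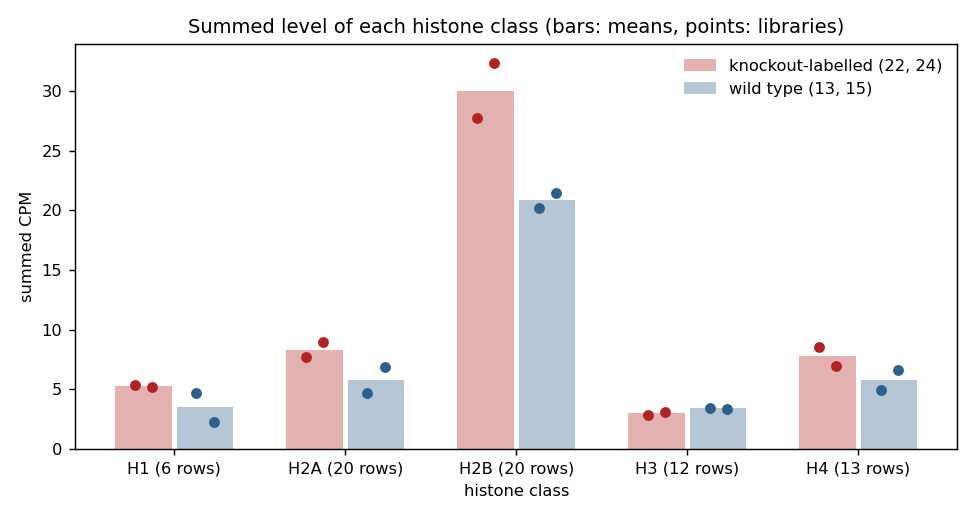
Summed CPM (vertical axis, from 0) of each histone class (horizontal axis), with the mean of the knockout-labelled libraries (left, red) and of wild type (right, blue) as bars and each library as a point. In H2B the knockout-labelled libraries lie at 27.7 and 32.3 CPM, against 20.2 and 21.5 CPM in wild type, and in H3 both knockout-labelled points lie below both wild-type points.

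Testing across the whole table, with genes of too few counts removed, left 11 of the 71 rows: 1 of H1, 3 of H2A, 4 of H2B, 1 of H3 and 2 of H4. Of these 11, 1 was higher in the knockout-labelled libraries at an adjusted p below 0.05, where 5.53% of all 13279 tested genes were higher, and 0 were lower, where 4.59% of all tested genes were lower (edgeR quasi-likelihood test, Benjamini-Hochberg adjustment). At an unadjusted p below 0.05 there were 2 rows, both with the higher mean in the knockout-labelled libraries, where 16.2% of all tested genes were higher and 15.5% lower. DESeq2 likewise called 1 higher and 0 lower, where it called 8.27% of all genes higher and 6.87% lower. The share called in the 11 rows, 9.09%, is close to the 10.12% of all tested genes. A row of few counts passes the filter through any 2 libraries with enough counts, which can be the 2 of the higher group. These 11 rows therefore do not stand for the 71. Both knockout-labelled libraries were above both wild-type libraries in 5 of the 11 rows, where this held for 31.1% of all tested genes, and below them in 1 row, where it held for 32.7%. The median log2 fold change of the 11 rows was 0.48, with 9 above 0, and that of all tested genes was -0.0013. With the filter removed, 64 rows with a count could be fitted, of which 1 was higher and 0 lower past the threshold, where 6.69% of all genes in that fit were higher and 5.77% lower. At an unadjusted p below 0.05 there were 3 higher and 0 lower rows, where 13.2% of all genes in that fit were higher and 12.0% lower. Of these rows 45 had a log2 fold change above 0 and 19 below, with a median of 0.51, beside 0.03 over the 18847 genes in that fit.

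**Figure D3:**
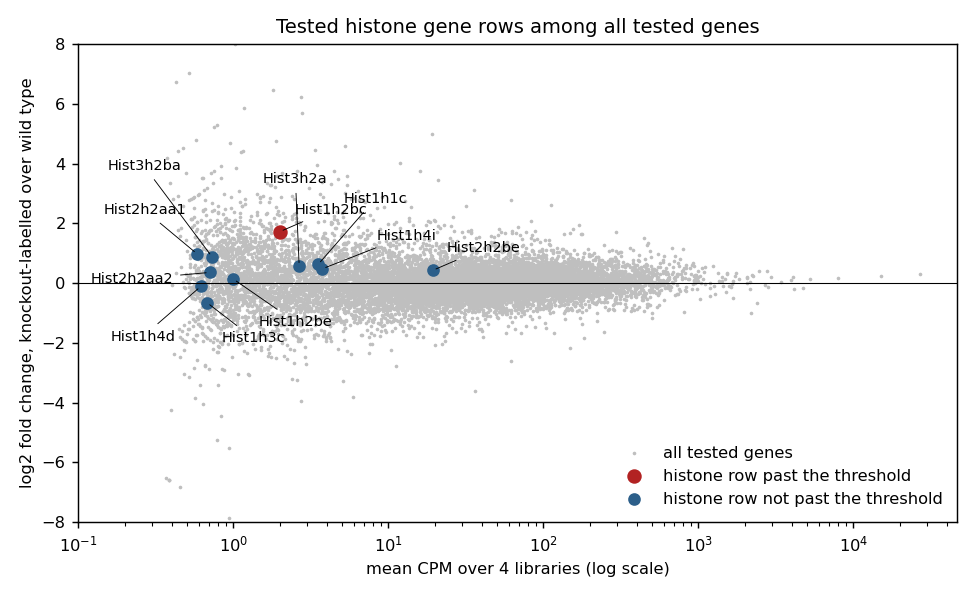
Log2 fold change, knockout-labelled over wild type (vertical axis), against mean CPM on a log scale (horizontal axis) for all 13279 tested genes (grey) and the 11 tested histone rows, in red where the adjusted p is below 0.05 and in blue otherwise. Hist1h2bc, at 1.72, is the red point, and 9 of the 11 rows lie above 0.

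Hist1h2bc (ENSMUSG00000018102) encodes an H2B and lies on the plus strand of chromosome 13 at 23684199 to 23692488 (GRCm38), with the coding sequence in its first annotated exon, 23684199 to 23684621, and a second exon after an intron of 7554 bases. It had 42 and 52 counts in the knockout-labelled libraries, against 17 and 12 in wild type. In CPM these are 2.81 and 3.32 in the knockout-labelled libraries, and 1.04 and 0.804 in wild type. The groups did not overlap. The log2 fold change was 1.72 (SE 0.38), or 3.29-fold higher, with an adjusted p of 0.0397. The call was lost with any one library left out, at adjusted p = 0.0507 without knockout-labelled 22, 0.0508 without knockout-labelled 24, 0.142 without wild type 13 and 0.256 without wild type 15, while the log2 fold change stayed between 1.54 and 1.91. It was also lost against a minimum fold of 1.5 (adjusted p = 0.157). Of the 50-base stretches of its GENCODE M21 transcript, which is 1156 bases long, 29.4% also stood in another histone transcript. The deposited gene model is 736 bases long, so the share among the counted bases can differ. The B cell markers given above were higher in the same libraries, at 2.44-fold in their sum, and their part in this result was not tested.

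Hist2h2be, a second H2B gene (ENSMUSG00000068854, chromosome 3, 96221119 to 96223738, plus strand), is a single annotated exon of 2620 bases and shares no 50-base stretch with another row. It held 41.4% of all histone counts. Its counts were 315 and 364 in the knockout-labelled libraries and 273 and 243 in wild type, so that the knockout-labelled libraries were higher without overlap. In CPM the means were 22.1 ± 1.52 in the knockout-labelled libraries and 16.5 ± 0.304 in wild type (SD, n = 2 each), with a log2 fold change of 0.42 and an SE of 0.16, and did not pass the threshold (adjusted p = 0.134). Per length it was also the highest row, at 7.71 and 8.88 FPKM in the knockout-labelled libraries and 6.50 and 6.35 FPKM in wild type. FPKM is the count scaled by the length of the gene model and by the library total, and lets levels of different genes be set side by side.

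The other H2B genes were near the limit of detection. Hist3h2ba (chromosome 11, 58948920 to 58949533) had 14 and 15 counts in the knockout-labelled libraries and 9 and 7 in wild type (log2 fold change 0.88, SE 0.49, adjusted p = 0.266). Hist1h2be had 10 and 22 counts in the knockout-labelled libraries and 3 and 26 in wild type, so its wild-type libraries span both knockout-labelled values. Its gene model has a length of 6940 bases, which puts its level per length below 0.26 FPKM in each library. Hist1h2be overlaps Gm11398 on the same strand, and the part of Gm11398 in these counts was not tested.

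Among H2A genes, Hist3h2a (chromosome 11, 58954685 to 58956830, plus strand) had 55 and 42 counts in the knockout-labelled libraries and 36 and 31 in wild type, again without overlap (log2 fold change 0.57, SE 0.33, adjusted p = 0.287). It overlaps Trim17 on the same strand, which had at most 0.191 CPM in any library. Hist2h2aa1 and Hist2h2aa2 are near copies of each other. Hist2h2aa1 was listed at 0 and 24 counts in the knockout-labelled libraries and at 0 and 12 in wild type, and Hist2h2aa2 at 15 and 9 in the knockout-labelled libraries and 6 and 13 in wild type. Other rows held 100% of the 50-base stretches of Hist2h2aa2 and 89.2% of those of Hist2h2aa1, so only their sum is read here. That sum was 15 and 33 counts in the knockout-labelled libraries and 6 and 25 in wild type, and the groups overlapped. Hist1h2af, which did not pass the filter, had 7 and 17 counts in the knockout-labelled libraries and 7 and 9 in wild type.

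H4 was carried mainly by Hist1h4i (chromosome 13, 22040636 to 22041362, minus strand), with 81 and 52 counts in the knockout-labelled libraries and 39 and 58 in wild type. Its groups overlapped (log2 fold change 0.48, SE 0.38, adjusted p = 0.428), and its mean level of 5.13 FPKM over the 4 libraries was second to that of Hist2h2be. Hist1h4d had 12 and 6 counts in the knockout-labelled libraries and 11 and 9 in wild type (log2 fold change -0.12, SE 0.58, adjusted p = 0.910). Hist1h4b had 8 and 4 counts in the knockout-labelled libraries and 7 and 13 in wild type and was not tested.

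For the linker histones, Hist1h1c (chromosome 13, 23738808 to 23740367, plus strand) held most of the H1 counts, with 66 and 65 in the knockout-labelled libraries and 64 and 24 in wild type. Wild type 15 alone was low, and the log2 fold change of 0.62 had an SE of 0.43 (adjusted p = 0.363). Without wild type 15 the log2 ratio of summed H1 was 0.18, against 1.21 without wild type 13. Hist1h1d had 1 and 7 counts in the knockout-labelled libraries and 5 in each wild-type library, and Hist1h1e had 11 and 3 in the knockout-labelled libraries and 5 and 2 in wild type.

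The H3 genes, whose sum was the only one of the 5 classes with the lower mean in the knockout-labelled libraries, had few counts each. Hist1h3c, the single H3 row that could be tested, had 10 and 6 counts in the knockout-labelled libraries and 16 and 10 in wild type (log2 fold change -0.65, SE 0.56, adjusted p = 0.456). The higher of its knockout-labelled values, 0.669 CPM, lay just under the lower of its wild-type values, 0.670 CPM. Hist1h3a had 8 and 4 counts in the knockout-labelled libraries and 5 and 12 in wild type, and Hist2h3c2 had 6 and 10 in the knockout-labelled libraries and 22 and 8 in wild type. Not all H3 rows went this way. Hist1h3d, Hist1h3e, Hist1h3f, Hist1h3g and Hist1h3h, with at most 8 counts in a library, had the higher mean in the knockout-labelled libraries. The other H3 rows with a count had the lower mean there.

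**Figure D4:**
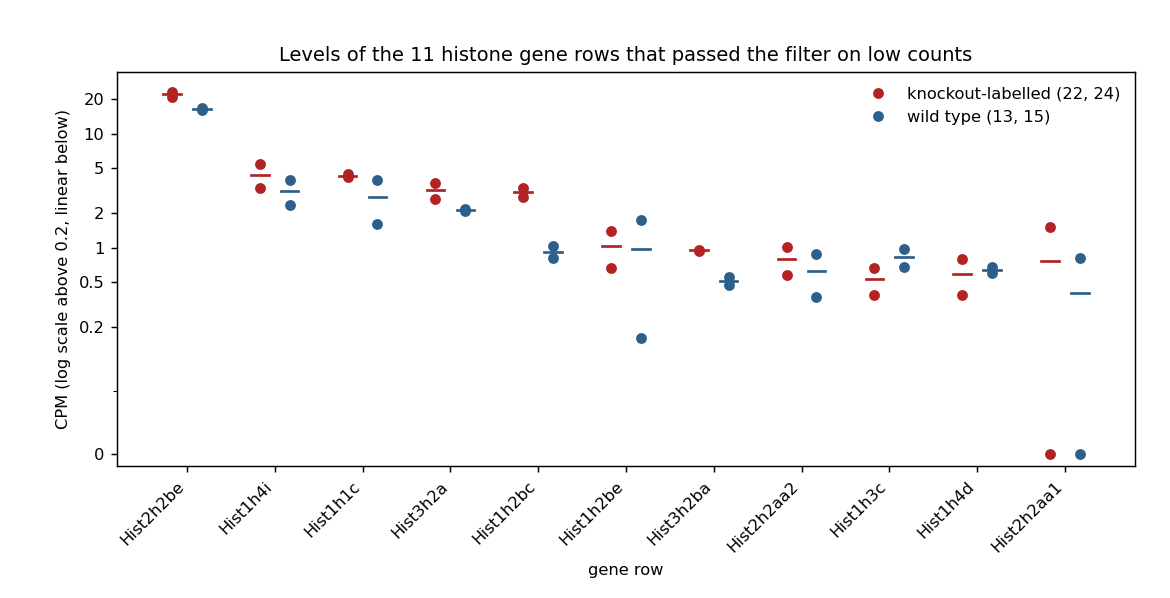
CPM (vertical axis, log scale above 0.2 and linear below) of the 11 histone rows that passed the filter on low counts, ordered by mean level, with each knockout-labelled library (left, red) and wild-type library (right, blue) as a point and the group mean as a line. Hist2h2be lies above 16 CPM in each library, and the knockout-labelled points of Hist1h2bc, at 2.81 and 3.32 CPM, stand clear of wild type.

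H2A and H2B genes often lie head to head over a shared promoter, and 14 such pairs were found, with 172 to 305 bases between the annotated starts. The best counted H2B genes each had a partner with hardly any counts. Hist2h2ac, the H2A partner of Hist2h2be across 238 bases, had 3 and 1 counts in the knockout-labelled libraries and 2 and 0 in wild type. Hist1h2ac, the partner of Hist1h2bc across 274 bases, had 0 and 2 counts in the knockout-labelled libraries and 3 and 0 in wild type. In another uneven pair the order of the classes was turned round, with 164 counts over the 4 libraries for the H2A gene Hist3h2a and 9 for the H2B pseudogene Hist3h2bb-ps. In the other pairs neither gene reached more than 27 counts.

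The stretch between the partners is shown for the pairs of Hist2h2be and Hist1h2bc, since the partners share it and yet differ in counts. Each sequence is the promoter of the H2A gene in RefSeq (GRCm38.p6), 250 bases before its start and 50 after, read on the minus strand, 5′ to 3′. The H2B partner starts on the opposite strand near the left end, at base 12 of the window for Hist2h2be and at base 11 for Hist1h2bc. Capitals mark 3 motifs on either strand, which do not overlap here: the octamer ATTTGCAT, bound by Pou2f1 at H2B genes, the TATA box TATAAA and the CCAAT box CCAAT.
Hist2h2ac (chr3:96220831-96221130): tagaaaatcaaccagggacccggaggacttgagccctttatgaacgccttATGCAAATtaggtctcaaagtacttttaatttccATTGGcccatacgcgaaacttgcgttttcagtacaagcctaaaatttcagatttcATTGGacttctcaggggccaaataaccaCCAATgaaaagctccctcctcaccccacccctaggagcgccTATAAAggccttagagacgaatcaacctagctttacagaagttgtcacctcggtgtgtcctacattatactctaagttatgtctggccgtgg
Hist1h2ac (chr13:23683910-23684209): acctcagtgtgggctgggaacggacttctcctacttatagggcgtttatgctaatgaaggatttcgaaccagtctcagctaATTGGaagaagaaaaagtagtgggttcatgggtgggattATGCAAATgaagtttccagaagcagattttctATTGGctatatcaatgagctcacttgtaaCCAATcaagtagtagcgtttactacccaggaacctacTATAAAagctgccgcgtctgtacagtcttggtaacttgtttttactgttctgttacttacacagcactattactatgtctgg
Each window held 1 octamer, 1 TATA box and 3 CCAAT boxes. RefSeq promoters were matched for 62 of the 70 symbols, which do not include Hist2h2be or Hist1h2bc. With any second start counted, the octamer stood in 22.22% of 63 histone promoters, 38.89% of the H2A and 41.18% of the H2B promoters and none of the H1, H3 or H4 promoters, beside 1.74% of all 32851 RefSeq promoters. The TATA box stood in 55.56% of histone promoters, beside 13.62% of all, and the CCAAT box in 85.71%, beside 37.41% of all. H4 promoters were apart from the other classes in the last of these, with the CCAAT box in 25.0% against 100% in each of the other classes.

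The rows with an annotated poly(A) signal held most of the counts in each library, through Hist2h2be. These 17 rows summed to 557 and 606 counts in the knockout-labelled libraries and 449 and 412 in wild type, while the other 52 rows with a transcript summed to 222 and 273 in the knockout-labelled libraries and 167 and 188 in wild type. Without Hist2h2be the remaining 16 rows with a signal summed to 242 counts in each knockout-labelled library and 176 and 169 in wild type, fewer than the rows without a signal in knockout-labelled 24 and wild type 15. Hist2h2be, Hist1h4i, Hist1h1c and Hist3h2a are among the rows with a signal, and the GENCODE M21 transcript of Hist1h2bc has none in its last 40 bases. The signal was looked for at GENCODE M21 ends, and the deposited gene models that were counted can end elsewhere. Hist1h2bc has 736 bases in the deposited model and 1156 in GENCODE, and Hist1h1d has 744 and 7425. The split by signal therefore describes the annotation, not the ends of the RNAs counted. In CPM, the rows with a signal gave 37.9 ± 0.988 in the knockout-labelled libraries and 27.6 ± 0.0845 in wild type, and those without gave 16.1 ± 1.81 in the knockout-labelled libraries and 11.4 ± 1.68 in wild type (SD, n = 2 each). Per length the order was different, with a median row mean of 0.145 FPKM with a signal and 0.324 FPKM without. The sources used here do not say whether RNAs were selected by their tail, and the part of such a step in these levels was not tested. Other RNAs without a tail differed in level. The 7 rows listed, among them Rmrp, Rpph1 and Terc, RNA parts of RNase MRP, RNase P and telomerase, summed to 0.468 and 1.59 CPM in the knockout-labelled libraries and 1.71 and 1.21 CPM in wild type. Of this, the row Snora26 held 0.134 and 0.701 CPM in the knockout-labelled libraries and 1.16 and 0.402 CPM in wild type. Its gene model is 4693 bases long, so its counts may not come from an RNA without a tail. Rny1 and Rny3 were at 0 in all 4 libraries. Malat1, a long nuclear RNA that also ends without a poly(A) tail but with an encoded A-rich stretch, had 407 and 392 CPM in the knockout-labelled libraries and 471 and 514 CPM in wild type.

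Replacement histones, most of whose RNAs carry a tail and are made outside S phase too, gave far higher summed FPKM. The part of any selection by tail in this gap was not tested. The 11 listed replacement genes summed to 274 and 377 FPKM in the knockout-labelled libraries and 393 and 373 FPKM in wild type, where the 71 replication-dependent rows summed to 49.7 and 57.4 FPKM in the knockout-labelled libraries and 36.4 and 42.9 FPKM in wild type. Of 10 tested replacement genes 1 rose, Cenpa, the H3 variant of centromeres, with 518 and 412 CPM in the knockout-labelled libraries and 292 and 288 CPM in wild type (log2 fold change 0.68, SE 0.14, adjusted p = 0.0338). The call of Cenpa was lost with wild type 13 left out (adjusted p = 0.161) and with wild type 15 left out (0.220). No other replacement gene passed the threshold, where 5.53% of all tested genes were higher and 4.59% lower. At an unadjusted p below 0.05 there was 1 lower, where 15.5% of all tested genes were lower. DESeq2 called 1 lower, where it called 6.87% of all genes lower. The log2 fold change was 0.17 for H2afz, -0.09 for H2afv, -0.02 for H2afy, -0.38 for H3f3a, -0.24 for H3f3b, -0.72 for H2afx and -0.89 for H1fx, with adjusted p-values of 0.198 to 0.928. Without knockout-labelled 24, where calls over all genes rose, H2afx and H3f3b passed, and they did not with any other library left out. H1f0, the linker histone of resting cells, had 28.4 and 43.7 CPM in the knockout-labelled libraries and 63.6 and 65.7 CPM in wild type (log2 fold change -0.84, adjusted p = 0.0519). It passed with DESeq2 (adjusted p = 0.00655). With a library left out, H1f0 passed without knockout-labelled 22 or 24, where calls over all genes rose. It did not pass without wild type 13 or 15, where they fell.

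Genes that make and process histone RNAs had lower means on the whole than in wild type, but few passed the threshold. Of the 27 listed, 1 fell and 0 rose, where 4.59% of all tested genes were lower and 5.53% higher. A log2 fold change below 0 was found for 22, and the median was -0.28. At an unadjusted p below 0.05, where 15.5% of all tested genes were lower and 16.2% higher, there were 10 lower and 2 higher. DESeq2 called 3 lower and 1 higher, where it called 6.87% of all genes lower and 8.27% higher. The count of lower genes fell without a wild-type library and rose without a knockout-labelled library, as the count over all genes did. The one that fell was Cstf2, a cleavage factor of the poly(A) and histone complexes, with 49.4 and 50.6 CPM in the knockout-labelled libraries and 88.0 and 80.3 CPM in wild type (log2 fold change -0.75, SE 0.13, adjusted p = 0.0240). Its call was lost with wild type 13 left out (adjusted p = 0.144) and with wild type 15 left out (0.123). Slbp had 60.6 and 84.9 CPM in the knockout-labelled libraries and 113 and 120 CPM in wild type, without overlap (log2 fold change -0.68, SE 0.18, adjusted p = 0.0613). Slbp passed with DESeq2 (adjusted p = 0.0138). Npat and Casp8ap2, which act at histone gene clusters, gave log2 fold changes of -0.21, at adjusted p = 0.402, and -0.22, at 0.281. For the U7-specific proteins Lsm10 and Lsm11 these were 0.50 and -0.32 (adjusted p = 0.105 and 0.171), for the U7 partner Zfp473 -0.19 (adjusted p = 0.671), for the histone RNA exonuclease gene Eri1 -0.07 (adjusted p = 0.709) and for the H4 gene factor Hinfp 0.13 (adjusted p = 0.748). The S phase kinase Cdk2 and its cyclins Ccne1 and Ccne2 had -0.43, -0.41 and -0.66 (adjusted p = 0.0827, 0.203 and 0.106). More of these named genes passed without knockout-labelled 24, in a fit where calls over all genes rose too.

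Histone chaperones, which carry new histones to DNA, had a median log2 fold change of -0.37. Of 23 tested, 1 was higher and 3 were lower, where 5.53% of all tested genes were higher and 4.59% lower. At an unadjusted p below 0.05, where 15.5% of all tested genes were lower and 16.2% higher, there were 13 lower and 1 higher. DESeq2 called 7 lower and 1 higher, where it called 6.87% of all genes lower and 8.27% higher. The edgeR counts of lower and of higher genes rose without a knockout-labelled library, as they did over all genes. Those that fell were Chaf1a (75.0 and 89.8 CPM in the knockout-labelled libraries, 135 and 136 CPM in wild type; adjusted p = 0.0315) and Chaf1b (26.2 and 37.0 CPM in the knockout-labelled libraries, 57.2 and 52.7 CPM in wild type; adjusted p = 0.0451), large subunits of the replication-coupled assembly factor CAF-1, and Rbbp7, a histone-binding protein (adjusted p = 0.0421). Daxx, which loads the replacement histone H3.3, rose (57.4 and 58.2 CPM in the knockout-labelled libraries, 40.5 and 37.7 CPM in wild type; adjusted p = 0.0403). None of these 4 calls held without wild type 13, at adjusted p-values of 0.158 to 0.219, or without wild type 15, at 0.149 to 0.366. For Asf1a, Nasp, Hira and Asf1b the log2 fold change was -0.52, -0.50, -0.47 and -0.87, at adjusted p = 0.0581, 0.0926, 0.0562 and 0.109. With a library left out, these 4 passed only in fits without a knockout-labelled library, where calls over all genes rose too.

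DNA replication genes, which in dividing cells are expressed with histones, had values on the opposite side to the histone sum. Of 30 listed, 17 fell and 0 rose, where 4.59% of all tested genes were lower and 5.53% higher. All 30 had a log2 fold change below 0, with a median of -0.82. At an unadjusted p below 0.05, where 15.5% of all tested genes were lower and 16.2% higher, there were 26 lower and 0 higher. DESeq2 called 22 lower and 0 higher, where it called 6.87% of all genes lower and 8.27% higher. The edgeR count of lower genes fell steeply without a wild-type library and rose without a knockout-labelled library, as it did over all genes. E2f1, a transcription factor of S phase genes, had 25.2 and 31.6 CPM in the knockout-labelled libraries and 56.0 and 56.8 CPM in wild type (log2 fold change -0.99, SE 0.15, adjusted p = 0.0199), and lost its call with wild type 13 left out (adjusted p = 0.0609) or with wild type 15 left out (0.0929). Mitosis genes were split, with 14 of 18 not past the threshold, where 5.53% of all tested genes were higher and 4.59% lower. Cdc20 and Ube2c were higher, and Mki67 and Foxm1 were lower. All 4 of these calls were lost without wild type 13 or without wild type 15, where calls over all genes fell too. More mitosis genes were called without a knockout-labelled library, as was so over all genes. The plot of gene lists sets these lists beside the histone rows.

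**Figure D5:**
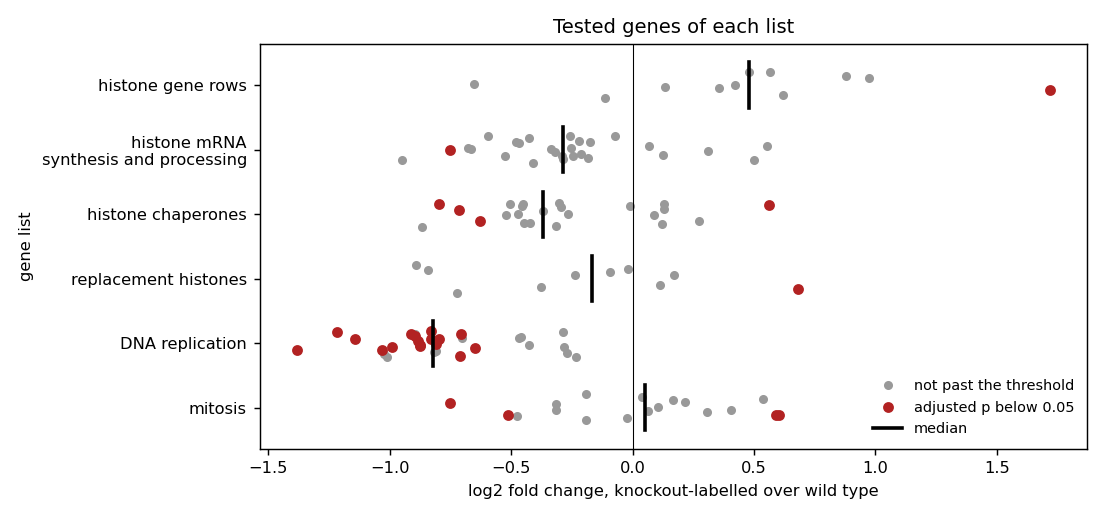
Log2 fold change, knockout-labelled over wild type (horizontal axis), of the tested genes in each list (vertical axis), in red where the adjusted p is below 0.05 and in grey otherwise, with the list median as a black bar. The median is 0.48 for the 11 tested histone rows and -0.82 for the 30 DNA replication genes.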

How the data were processed

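RNA-seq of 4 libraries was analysed. TRIzol extracts of total RNA were sequenced on the HiSeq platform, per the labels' protocols. Reads were processed with Bowtie2, RSEM and the GRCm38.p6 (mm10) genome, per the submitters' processing notes. The sources used here name no version, strand setting or annotation release. The authors deposited whole-number counts and FPKM for 34745 genes; the deposited FPKM values use 1 fixed length per gene.

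Counts were tested with edgeR 4.0.16 in R 4.3.3: filterByExpr (minimum count 10, minimum total 15), trimmed-mean scaling, glmQLFit and glmQLFTest, two-sided, no covariate, Benjamini-Hochberg adjustment over 13279 genes, threshold 0.05. Adjusted p-values are from this test unless another is named. Standard errors are approximate, from the fold change and F statistic. An exact test of 2 against 2 libraries cannot give p below 0.333. Intervals and floors cover counting error only. The fit was tested on simulated data, where the share of false calls lay above the threshold of 0.05 and most 1.5-fold changes were missed. Alternatives used other scalings and filters, DESeq2 1.42.0, limma 3.58.1 and each library left out. GENCODE M21 was matched by identifier.

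Histone rows named with values are the 3 of highest mean FPKM in each class, every row past the threshold and the other tested rows, Hist1h2be and Hist2h2aa1, which, with the rows at 0 and the divergent partners, were added after their values were seen. Other named genes are members of the gene lists. Members and gene lists were chosen with earlier results of these data known. One cell type marker was left out of its list and is not reported here.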

Additional observations from a re-analysis of the deposited data

How the results depend on the processing

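The direction of the summed histone level, of each class sum and of the median of the tested rows was kept under each scaling, unit and left-out library tried, with log2 ratios of 0.41 to 0.53 for all rows over the left-out libraries. The count of 1 higher histone row became 0 against a minimum fold of 1.5, 0 when counts were summed by class, and 0 with any one library left out. Over all genes, 734 were higher; there were 1261 with every gene with a count, 445 and 457 with limma on log2(FPKM + 1) and log2(FPKM + 0.1), 85 against a minimum fold of 1.5, and 120 to 2122 with a library left out. The 610 lower became 1088 with every gene with a count, 35 against the minimum fold and 70 to 2002 with a library left out. In the gene lists, 4 were higher: 2 with upper-quartile scaling, 2 with library totals, 0 and 1 with limma on FPKM, 0 against the minimum fold and 0 to 10 with a library left out. The 23 lower became 40 with every gene with a count, 36 with DESeq2, 1 against the minimum fold and 2 to 66 with a library left out. With a library left out, log2 fold changes changed sign for Hist1h2be (-0.75 to 2.44), Hist1h4d (-0.72 to 0.32), Hist2h2aa1 (-0.065 to 6.61), Hist2h2aa2 (-0.15 to 1.08), Zfp473 (-0.64 to 0.17), Eri1 (-0.15 to 0.0028), Hinfp (-0.26 to 0.43), H2afv (-0.44 to 0.19) and H2afy (-0.14 to 0.10). The cause of these changes was not tested. With 1 library left in a group, it is assumed to vary like the other group. No paired analysis was possible because the groups share no replicate number. At these library totals 60 of the 71 rows had too few counts to pass the filter.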
